A study of Homo sapiens with 4 samples.

Results

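The p53 pathway was followed through 31 genes, the feedback regulators of p53 and its best known transcriptional targets, in HEK293 cells depleted of CNOT4. Members were taken by gene symbol from the deposited tables, and all 31 were found among 20457 features, C12orf5 being the older symbol of TIGAR. HEK293 is an established line from human embryonic kidney. It carries the E1A and E1B genes of adenovirus, and the larger E1B protein is known to bind p53 and restrain it, which was not measured here. Both groups are of this line. The siCNOT4 group (2 libraries, labelled as CNOT4 knockdown) received siRNA against CNOT4, and the siControl group (2 libraries, labelled WT) received a negative control siRNA, both at 10 nM for 72 h. The labels do not say whether replicates came from separate cultures, so p values measure the spread between these libraries only. CNOT4 is a ubiquitin ligase linked to CCR4-NOT, the deadenylase complex that shortens mRNA tails. The study asked how CNOT4 bears on codon-dependent expression.

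The transcription factor p53 is held at a low level by MDM2, a ubiquitin ligase, with help from MDM4. DNA damage and other stresses release it, and it then activates genes that stop the cell cycle, repair DNA, adjust metabolism or start cell death. Several of its targets, MDM2 and the phosphatase PPM1D among them, act back on p53. Some targets, such as GDF15, are also activated by the stress factors ATF4 and CHOP without p53.

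p53 binds pairs of decamers, each with a core of the form CNNG. The strings below are, for each gene with a match, the one nearest to that consensus in its RefSeq promoters (GRCh38.p14, all on the plus strand), and they are shown because this is the sequence form that p53 recognizes. The CNNG core of each decamer is in capitals.
MDM2: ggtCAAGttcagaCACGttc
DDB2: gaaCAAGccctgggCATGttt
FAS: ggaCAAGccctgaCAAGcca
AEN: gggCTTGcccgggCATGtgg
They lie at chr12:68808923-68808942 (MDM2), chr11:47214979-47214999 (DDB2), chr10:88991309-88991328 (FAS) and chr15:88621306-88621325 (AEN). The search covered 250 bases before to 50 bases after each annotated start, allowed 0 or 1 base between the decamers and up to 2 mismatches outside the C and G of the cores, and read both strands, on which the consensus is the same. A match was found in 187 of 35116 promoters of this length (0.533%), and in 5 of 37 promoters of the genes studied, which covered 25 of the 31 genes and gave 4 genes with a match. A match describes the sequence, and binding was not measured here.

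Values are TPM, transcript abundance per unit length scaled to a fixed sum in each library. From the step that 1 read makes in the lowest values, the depth was estimated at 32.4 to 34.5 per library, in units of 1e6 reads. The siControl replicates differed more from each other than the siCNOT4 replicates did. Over all 14208 features tested (mean TPM of at least 1), the median absolute difference between replicates was 0.43 in siControl and 0.094 in siCNOT4 on the log2(TPM + 1) scale. The median feature was higher in siCNOT4 by 0.50, and for some genes below the fold change is also given relative to that median. Fold changes with TPM as deposited include this shift. *CNOT4* had TPM of 6.43 and 4.73 in siControl and 3.38 and 3.81 in siCNOT4. Both siCNOT4 libraries were below both controls, but the log2 fold change of -0.51 was not called (limma adjusted p = 0.184, SE 0.26). In limma *CNOT4* was called lower after TMM scaling (-0.95, adjusted p = 0.0359) and quantile normalization (-1.15, adjusted p = 0.0252). Removal of a trend on length and GC content also gave a call (-1.30, adjusted p = 0.0136). A pseudocount of 0.1 (adjusted p = 0.203), no filter on low values (adjusted p = 0.220) and a replicate block (adjusted p = 0.355) gave none. Leaving out 1 library put the *CNOT4* fold change between -0.70 and -0.32. Of 7 genes listed for HEK293 cells, 6 reached a mean TPM of 1 (not *NEFM*). *VIM*, the most abundant, had 917 and 650 TPM in siControl and 369 and 354 in siCNOT4 (adjusted p = 0.0288). *INA* had 9.60 and 5.62 against 18.9 and 20.8 (adjusted p = 0.0496), and *PAX2* and *LHX1* also lay above both controls. *NEFL* lay below both controls, with 384 and 346 against 336 and 307, and *CDH2* overlapped. The part of these markers in the results was not tested. Of 12 genes listed for blood, fibroblasts, endothelium and liver, 11 stayed under 1 TPM in all libraries and *HBB* was at 0. Only *COL1A1* passed 1 TPM, with 1.39 and 0.906 in siControl and 5.09 and 6.60 in siCNOT4. It was called higher (1.67, limma adjusted p = 0.0248), also after TMM scaling (1.30, adjusted p = 0.0299). The sum of these 12 was 1.81 and 1.25 TPM in siControl and 6.34 and 8.33 TPM in siCNOT4, and its part in the results was not tested. In bulk RNA, fewer cells with a transcript and less of it per cell cannot be told apart.

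The 31 genes did not move as one block. After CNOT4 depletion *TP53I3*, *TP53INP1*, *MDM2*, *SPATA18* and *DDB2* rose and *GDF15* fell, at an adjusted p under 0.05 in limma. The rises were between 1.66-fold (*DDB2*) and 3.02-fold (*TP53I3*) by the ratio of mean TPM, and *GDF15* was 5.76-fold lower. The 5 higher genes are 16.1% of the 31, beside 11.3% of all tested features called higher, and the 1 lower gene is 3.23%, beside 1.30%. At an unadjusted p under 0.05 stood 14 of the 31 (45.2%), beside 42.0% of all features. All 31 passed the filter on low values, with mean siControl TPM from 2.72 (*SPATA18*) to 517 (*CCNG1*). Their median log2 fold change was 0.47, against 0.50 for all features, and 14 of 31 lay above the median of all features. Both siCNOT4 libraries were above both siControl libraries in 17 genes (54.8%, beside 66.4% of all features), below both in 3 (9.68%, beside 10.6%), and the groups overlapped in 11.

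**Figure D1:**
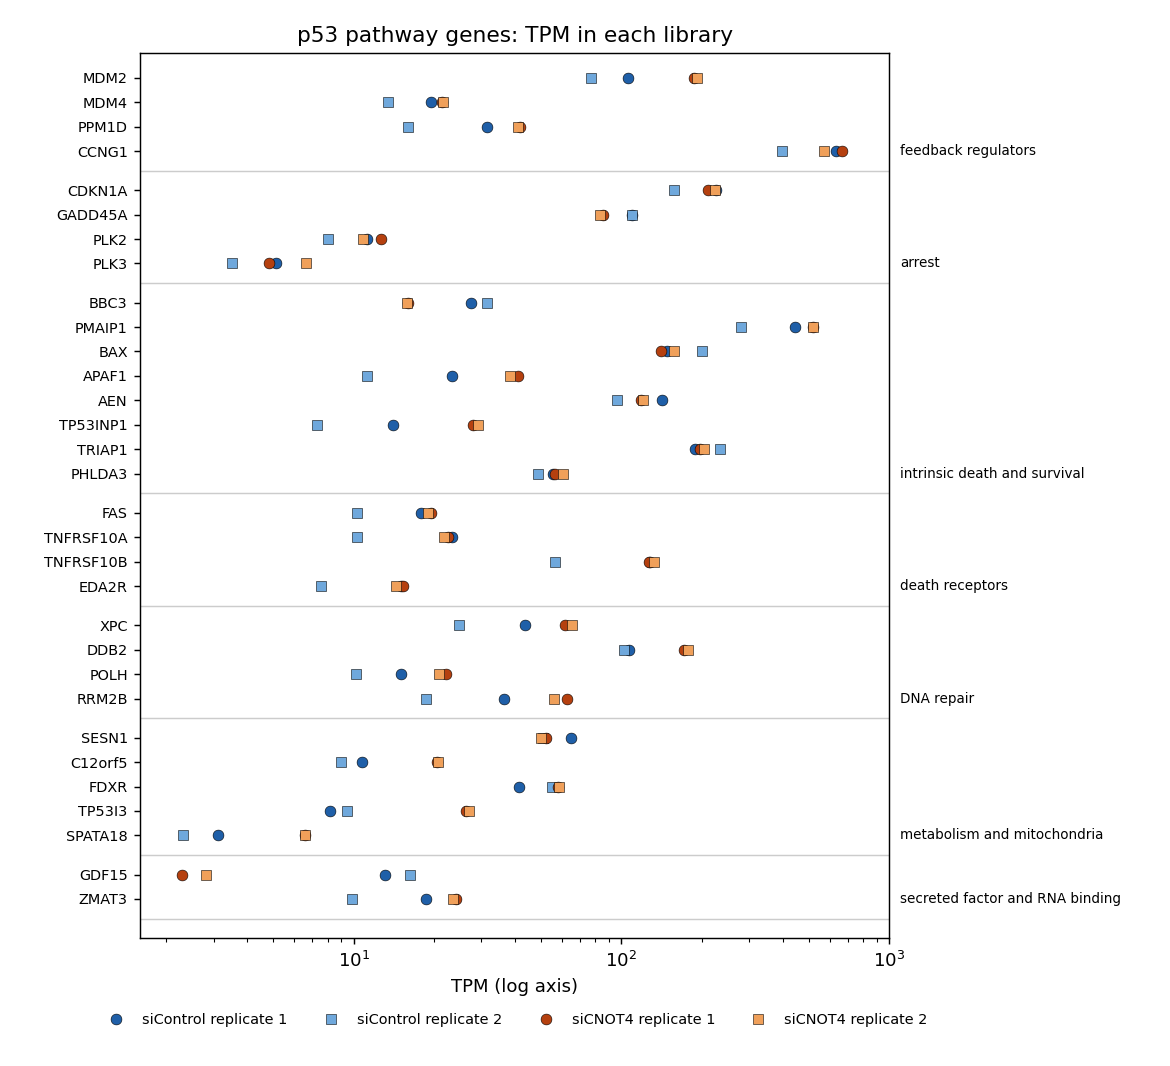
TPM of each of the 31 genes (rows, grouped by role) in the 4 libraries, on a log axis, with blue for siControl, orange for siCNOT4, circles for replicate 1 and squares for replicate 2. The siCNOT4 points nearly coincide in most rows while the siControl points are spread, and only *GDF15*, *BBC3* and *GADD45A* have both siCNOT4 points to the left of both siControl points.

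The calls depended on which libraries were in the fit. With a siCNOT4 replicate left out, the median log2 fold change of the 31 genes was 0.46 (without replicate 1) or 0.48 (without replicate 2). Over all features it was 0.53 and 0.48. None of the calls above was kept by limma in either fit. All features called were then 3.09% higher and 0.260% lower without replicate 1, and 2.91% and 0.260% without replicate 2. Without siControl replicate 1, 24 were called higher and 5 lower (beside 70.9% and 8.73% of all features), and without siControl replicate 2, 14 and 5 (beside 47.2% and 10.3%). Other settings of the same test left 1 higher gene, *TP53I3*, and *GDF15* lower. These were a pseudocount of 0.1 (beside 3.36% and 0.563% of all features), no filter on low values (4.29% and 0.309%) and a fit without a trend on mean expression (4.95% and 0.373%). A mean TPM of at least 5 left 30 genes, of which 0 were called higher in limma and *GDF15* was called lower (0.957% and 0.333%). In that fit 14 of the 30 had an unadjusted p under 0.05, beside 4476 of 11395 features. In the fits without a library, the lone library of a group is assumed to vary like the pair of the other group.

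**Figure D2:**
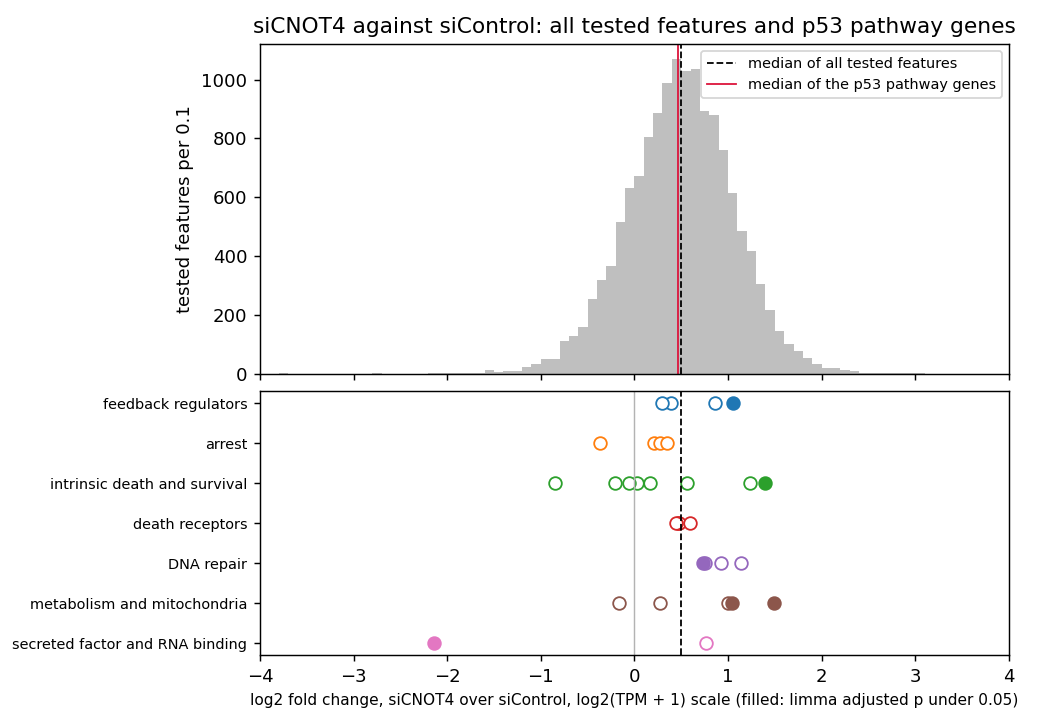
Upper panel, log2 fold changes of all 14208 tested features in bins of 0.1, with the median of all features (dashed, 0.50) and that of the 31 genes (red, 0.47). Lower panel, 1 point per p53 pathway gene by role, filled where the limma adjusted p was under 0.05: the arrest genes all lie to the left of the dashed line, the DNA repair genes all to its right, and *GDF15* stands alone at -2.14.

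Among the feedback regulators, *MDM2* was the gene called. *MDM2* encodes the ligase that marks p53 for degradation, and its promoter holds a match printed above. In siControl its TPM was 106 and 77.0, and in siCNOT4 it was 186 and 192, with no overlap. The log2 fold change was 1.06 (limma adjusted p = 0.0333, SE 0.20), or 0.55 relative to the median of all features. After a spline on transcript length and GC content had been subtracted from each library (trend removal below), it was 0.14 (adjusted p = 0.556), and after TMM scaling 0.51 (adjusted p = 0.0791). *PPM1D*, the WIP1 phosphatase that removes activating phosphates from p53 and its kinases, had 31.4 and 15.9 TPM in siControl and 41.7 and 41.0 in siCNOT4. Its fold change of 0.86 was not called (adjusted p = 0.110). *MDM4*, the MDM2 partner that masks the activation domain of p53, had 19.5 and 13.5 against 21.4 and 21.6. *CCNG1*, cyclin G1, was the most abundant of the 31 genes, with 634 and 399 TPM in siControl and 668 and 570 in siCNOT4, and its groups overlapped. *MDM4* and *CCNG1* had log2 fold changes of 0.39 and 0.29, both below the median of all features.

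None of the 4 arrest genes was called with TPM as deposited, and all 4 lay below the median of all features. *CDKN1A*, which encodes the cyclin-dependent kinase inhibitor p21 and is the main arrest gene of the pathway, had TPM of 225 and 157 in siControl and 211 and 224 in siCNOT4. Both siCNOT4 libraries thus fell inside the range of the controls, and the log2 fold change was 0.21 (limma adjusted p = 0.433, SE 0.20). *GADD45A*, a stress sensor that acts on CDK1 and on DNA repair, had the closest control values of the pathway, 109.3 and 109.1 TPM, and both siCNOT4 libraries were below them at 85.7 and 83.3. Its log2 fold change of -0.37 was not called (adjusted p = 0.126). It passed the threshold after quantile normalization (-0.66, adjusted p = 0.0341) and after trend removal (-0.58, adjusted p = 0.0191). The kinases *PLK2* and *PLK3* were low, with 8.02 to 12.6 TPM and 3.52 to 6.64 TPM over all libraries, and overlapped between groups.

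Of the 8 genes of intrinsic death and survival, 1 was called higher, and *BBC3* lay lowest, just outside the threshold. *TP53INP1*, a cofactor that promotes p53 phosphorylation and autophagy-linked death, had TPM of 14.1 and 7.32 in siControl and 27.9 and 29.1 in siCNOT4. It rose by 1.40 on the log2 scale (SE 0.34), with a limma adjusted p of 0.0496, close to the threshold. After TMM scaling, which aligns the bulk of features between libraries, it was 0.89 (adjusted p = 0.0544). *APAF1*, the scaffold of the apoptosome, had 23.2 and 11.2 TPM against 41.0 and 38.2. The siCNOT4 values of *APAF1* were close together and above both controls, but the fold change of 1.24 (SE 0.36) was not called (adjusted p = 0.0629). *PMAIP1*, the BH3-only protein NOXA, was abundant at 444 and 278 TPM in siControl and 520 and 517 in siCNOT4. Its fold change of 0.56 (adjusted p = 0.116) lay 0.058 above the median of all features.

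*BBC3* stood opposite to these. It encodes PUMA, the BH3-only protein that mediates much of p53-driven apoptosis. In siControl its TPM was 27.4 and 31.4, and in siCNOT4 it was 16.0 and 15.8, so the groups were apart and the siCNOT4 replicates differed by 0.020 on the log2 scale. The log2 fold change was -0.85 (SE 0.23), just outside the threshold in limma (adjusted p = 0.0599), and -1.35 relative to the median of all features. Only 172 of the 14208 features had a lower fold change. *BBC3* was called lower after TMM scaling (-1.37, adjusted p = 0.0386), quantile normalization (-1.35, adjusted p = 0.0290) and trend removal (-0.78, adjusted p = 0.0141). The pair of BH3-only genes therefore had fold changes of opposite sign with TPM as deposited, 0.56 for *PMAIP1* and -0.85 for *BBC3*. *PMAIP1* was at 0.011 after TMM scaling (limma adjusted p = 0.973) and 0.0090 after trend removal (adjusted p = 0.972). After quantile normalization it was 0.55 (adjusted p = 0.125). The difference between these genes was not tested.

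None of the other 4 death and survival genes was called. *BAX*, the pore-forming effector, had 148 and 200 TPM in siControl and 140 and 158 in siCNOT4. *TRIAP1*, a small inhibitor of apoptosis, had 188 and 233 against 197 and 204, both siCNOT4 libraries inside the control range. *AEN*, an apoptosis-enhancing nuclease with a match printed above, had 141 and 96.3 against 118 and 121, also inside that range. *PHLDA3*, which competes with AKT for membrane lipids, had 55.5 and 48.8 against 56.7 and 60.8. Their log2 fold changes ran from -0.21 (*BAX*) to 0.17 (*PHLDA3*), all below the median of all features.

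None of the 4 death receptors was called, and in each the siControl replicates were far apart. *TNFRSF10B*, the TRAIL receptor DR5, had TPM of 128 and 56.6 in siControl and 127 and 132 in siCNOT4. *TNFRSF10A*, the TRAIL receptor DR4, had 23.3 and 10.3 against 22.5 and 21.7. *FAS*, the receptor of FAS ligand with a promoter match printed above, had 17.9 and 10.3 against 19.4 and 19.0. *EDA2R*, a receptor of ectodysplasin A2, had 15.0 and 7.55 against 15.3 and 14.5. In all 4 genes the siCNOT4 values were close to siControl replicate 1, and siControl replicate 2 was the low library. Their log2 fold changes of 0.44 to 0.60 (SE 0.32 to 0.39) were not called, with limma adjusted p from 0.238 to 0.366. Against siControl replicate 1 alone they ran from -0.075 to 0.10.

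With TPM as deposited, all 4 DNA repair genes lay above both controls (beside 66.4% of all features) and above the median of all features. After TMM scaling *DDB2* overlapped with the controls. *DDB2*, the damage recognition subunit that starts nucleotide excision repair in chromatin, had TPM of 107 and 102 in siControl and 171 and 177 in siCNOT4. It rose by 0.73 (limma adjusted p = 0.0387, SE 0.15) with replicates that differed by 0.061 or less. Among the 4 strings printed above, that of *DDB2* was the only one with 0 mismatches. Sites outside the searched window, or in the genes without a promoter in the search, were not looked for. Relative to the median of all features the value for *DDB2* was 0.23, and after TMM scaling it was 0.18 (adjusted p = 0.507). It was called after quantile normalization (0.50, adjusted p = 0.0445) and after trend removal (0.49, adjusted p = 0.0246). *XPC*, which takes over the lesion from DDB2, had 43.5 and 24.8 TPM against 61.8 and 65.4 (0.93, adjusted p = 0.0720). *RRM2B*, the p53-inducible subunit of ribonucleotide reductase that supplies deoxynucleotides outside S phase, had 36.6 and 18.7 against 62.4 and 55.9 (1.14, adjusted p = 0.0633). *POLH*, the polymerase that copies past ultraviolet lesions, had 15.0 and 10.2 against 22.2 and 20.9 (0.75, adjusted p = 0.104). These genes were 1.66-fold to 2.14-fold higher by the ratio of group means, while 1 of 4 passed the test.

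The metabolic and mitochondrial genes held the largest rise of the pathway. *TP53I3*, a quinone oxidoreductase also known as PIG3 that p53 activates through a repeat in its gene, had TPM of 8.19 and 9.42 in siControl and 26.3 and 26.9 in siCNOT4. It rose by 1.50 (limma adjusted p = 0.0288, SE 0.25), and 480 of 14208 features had a higher fold change. Unlike most of the genes studied, *TP53I3* was lower in siControl replicate 1 than in replicate 2, and its fold change was 1.59 against the first and 1.41 against the second. After TMM scaling it was 0.98 (adjusted p = 0.0590), and after trend removal 1.28 (adjusted p = 0.0109). *SPATA18*, the mitochondrial quality control protein Mieap, was the least abundant gene in siControl, with 3.12 and 2.31 TPM from about 178 and 149 reads, against 6.61 and 6.60 TPM. It rose by 1.04 (SE 0.25, adjusted p = 0.0488), just inside the threshold, and was at 0.61 after TMM scaling (adjusted p = 0.0649). *C12orf5* (TIGAR), a fructose bisphosphatase that slows glycolysis, had 10.8 and 8.94 TPM against 20.5 and 20.7. Its log2 fold change of 1.00 (SE 0.26) lay just outside the threshold (adjusted p = 0.0546), while the nearly equal value of *SPATA18* lay just inside it.

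The other metabolic genes did not share these values. *FDXR*, the ferredoxin reductase of mitochondria, had 41.5 and 55.3 TPM in siControl and 58.1 and 58.4 in siCNOT4 (0.28, adjusted p = 0.335). *SESN1*, a sestrin that restrains mTORC1 when leucine is scarce, had 65.0 and 50.9 against 52.4 and 50.1, and its groups overlapped. The *SESN1* fold change was -0.16 with TPM as deposited (adjusted p = 0.546) and -0.66 relative to the median of all features. It was called lower after TMM scaling (-0.70, adjusted p = 0.0484), quantile normalization (-0.55, adjusted p = 0.0460) and trend removal (-0.77, adjusted p = 0.0141).

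*GDF15* was the gene of the pathway that fell. It encodes a secreted stress cytokine. In siControl its TPM was 13.1 and 16.3, and in siCNOT4 it was 2.30 and 2.80, from about 204, 287, 34 and 41 reads. The 95% counting intervals were 1.59 to 3.21 and 2.01 to 3.80 TPM in siCNOT4 (exact Poisson on estimated reads, covering counting error only). The groups were far apart (log2 fold change -2.14, SE 0.28, limma adjusted p = 0.0228), and 2 of the 14208 features had a lower value. *GDF15* was called lower with TPM as deposited, TMM scaling, quantile normalization and trend removal, at -2.14 to -2.74. With a siCNOT4 replicate left out it was -2.04 (without replicate 1, adjusted p = 0.129) and -2.24 (without replicate 2, adjusted p = 0.0755). *ZMAT3*, an RNA-binding zinc finger protein that regulates splicing, had 18.6 and 9.87 TPM against 24.2 and 23.5, and its fold change of 0.77 was not called (adjusted p = 0.137).

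*GDF15* and several death genes are also targets of the ATF4 stress pathway, so 15 genes of that response were counted beside them. With TPM as deposited, 6 of 15 were called lower and 0 higher (beside 1.30% and 11.3% of all features). *ATF4* itself had 1005 and 1151 TPM in siControl and 358 and 352 in siCNOT4 (-1.60, limma adjusted p = 0.0227). *NUPR1*, *DDIT4* and *CHAC1* fell too, with log2 fold changes of -2.76, -1.57 and -1.53, and so did the serine synthesis genes *PHGDH* and *PSAT1* (-0.88 each). *DDIT3*, which encodes CHOP, was not called (-0.41, limma adjusted p = 0.130). Both siCNOT4 libraries were below both controls in 11 of the 15 genes (beside 10.6% of all features). They were above both in 2 (beside 66.4%), *ATF3* (0.76) and *PPP1R15A* (0.34), neither called. *SLC7A11* (0.11) overlapped. After TMM scaling 9 of 15 were called lower and 0 higher (beside 4.33% and 4.45%). The median of the list was -1.11 relative to all features. The part of these genes in the fall of *GDF15* was not tested.

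The siControl replicates were far apart for most of the 31 genes. TPM was higher in siControl replicate 1 than in replicate 2 for 25 of 31 genes, with a median difference of 0.50 (0.38 over all features). The largest was 1.16 in *TNFRSF10B*. In siCNOT4 the median absolute difference between replicates was 0.05 and the largest 0.39, in *PLK3*. The absolute group difference was larger than both replicate differences in 13 of 31 genes. That count was not made over all features, so it cannot be set against a background. Transcript length moved with these values. Across the 31 genes Spearman's rho between the siControl replicate difference and transcript length was 0.65, and between the group fold change and length 0.68. Over all 13733 features with a length these were 0.62 and 0.38. The genes share libraries and are not independent replicates, so these are descriptions, and the part of transcript length in the results was not tested.

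**Figure D3:**
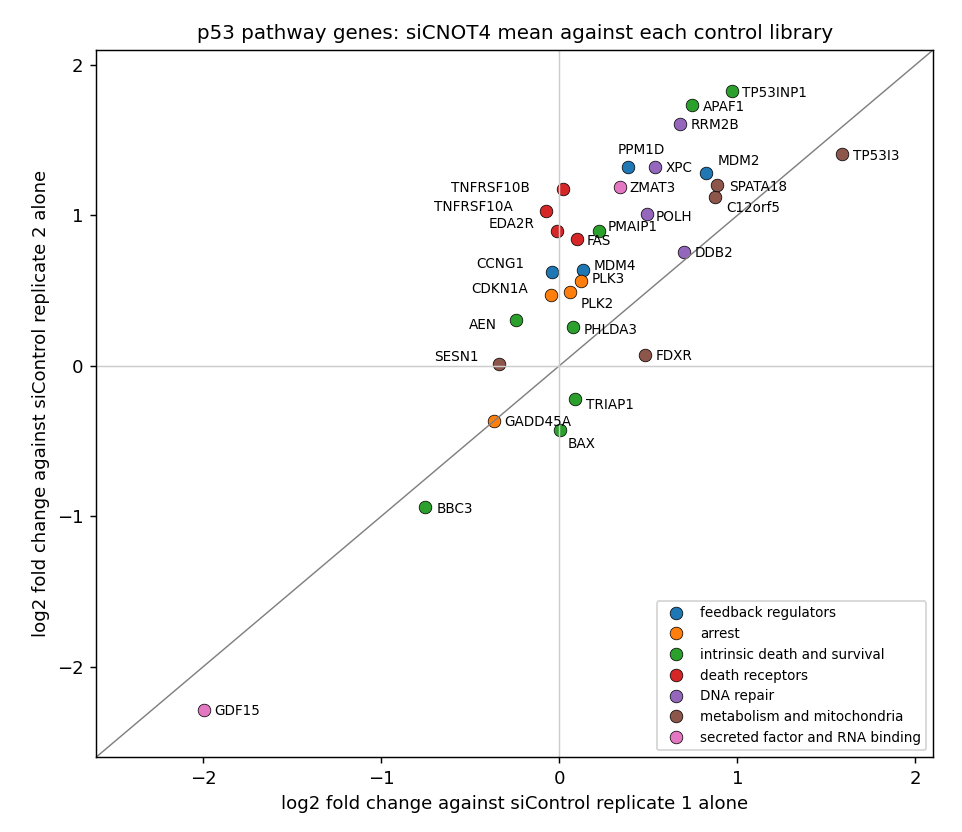
Log2 fold change of the siCNOT4 mean against siControl replicate 1 alone (horizontal axis) and against siControl replicate 2 alone (vertical axis), 1 point per gene, colored by role, with the diagonal of equal values. The death receptors lie near 0 on the horizontal axis and between 0.84 and 1.18 on the vertical axis, while *GDF15*, *BBC3*, *GADD45A*, *DDB2* and *TP53I3* lie near the diagonal.

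Set against each control library alone, some genes lay apart from both control libraries and others from 1 of them. *TP53I3* was 1.59 and 1.41 above the controls, *DDB2* 0.70 and 0.76, *MDM2* 0.83 and 1.28, and *SPATA18* 0.88 and 1.20. *CDKN1A* was -0.048 against replicate 1 and 0.47 against replicate 2, and *AEN* was -0.24 and 0.31. *SESN1* was -0.34 and 0.011. These values are descriptions of single libraries, with no test of the difference.

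Scaling moved all 31 genes. TMM scaling brought the median of all features from 0.50 to 0.0087, quantile normalization to 0.019 and trend removal to -0.00023. The median of the 31 genes went from 0.47 to -0.043, 0.059 and 0.0090. After TMM scaling limma called 0 of the 31 genes higher and 3 lower, *GDF15*, *BBC3* and *SESN1*, beside 4.45% and 4.33% of all features. Of the genes above 0 with TPM as deposited, 11 were below 0 after TMM scaling, among them *CDKN1A* (-0.33), *AEN* (-0.51), *CCNG1* (-0.25) and *MDM4* (-0.13). At an unadjusted p under 0.05 stood 12 of the 31 genes in that fit, beside 36.3% of all features. After quantile normalization 3 were called higher (*MDM2*, *DDB2* and *TP53INP1*, beside 7.11%) and 4 lower (those 3 and *GADD45A*, beside 8.23%). After trend removal 4 were called higher (*TP53I3*, *TP53INP1*, *APAF1* and *DDB2*, beside 11.8%) and the same 4 lower (beside 13.2%). Of the genes above the median with TPM as deposited, *TP53I3*, *TP53INP1*, *APAF1*, *RRM2B*, *XPC*, *SPATA18* and *C12orf5* had values of at least 0.28 under all 3 of these scalings. Both siCNOT4 libraries were above both controls in 10 genes after TMM scaling (32.3%, beside 35.3% of all features) and below both in 12 (38.7%, beside 34.4%).

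**Figure D4:**
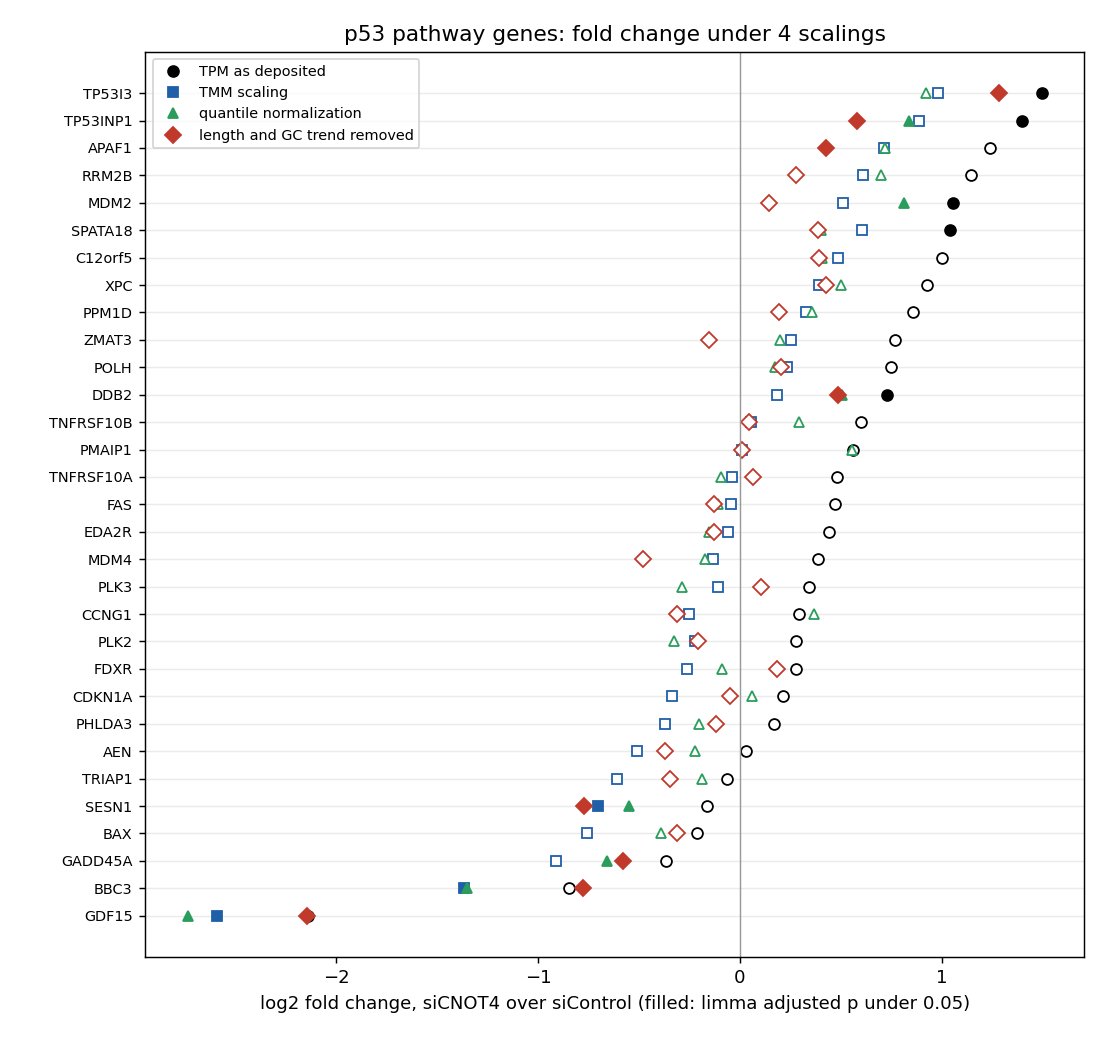
Log2 fold change of each gene (rows, ordered by the value with TPM as deposited) under 4 scalings, filled where the limma adjusted p was under 0.05. All black circles lie to the right of the TMM squares, *GDF15* is filled in all 4, and *BBC3* and *SESN1* are filled in the 3 scalings other than TPM as deposited.

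The genes called lie at chr2:24077433-24085861 (*TP53I3*), chr8:94925972-94949411 (*TP53INP1*), chr12:68808176-68850686 (*MDM2*), chr4:52051331-52097292 (*SPATA18*), chr11:47214465-47239240 (*DDB2*) and chr19:18374731-18389176 (*GDF15*) in GENCODE 29 on GRCh38. Reads of overlapping genes could enter some of these values, since the use of strand in the counting is not given in the sources used here. In GENCODE 29, 11 of the 31 genes share exon bases with another annotated gene. Among the genes called, *MDM2* shares bases with an antisense transcript and a pseudogene, and *TP53I3* with *FAM228B* on the opposite strand. *GDF15*, *DDB2*, *SPATA18* and *TP53INP1* share none.

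Of 24 genes that regulate p53, 23 were tested, and with TPM as deposited limma called 1 lower and 0 higher (beside 1.30% and 11.3% of all features). The lower gene was *CDKN2A*, whose ARF product restrains MDM2 and whose other product is the kinase inhibitor p16. In siControl its TPM was 91.3 and 96.5, and in siCNOT4 it was 38.9 and 41.5 (-1.20, SE 0.18, adjusted p = 0.0244). It was also called after TMM scaling (-1.74, adjusted p = 0.0298). TPM per gene does not separate the 2 products. The median of these regulators was 0.57, or 0.069 relative to all features.

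Of 25 other p53 targets listed, 22 were tested and 4 were called higher, *SERTAD1* (1.32), *ANKRA2* (1.00), *FBXO22* (0.87) and *RPS27L* (0.81), and 0 lower (beside 11.3% and 1.30% of all features), with a median of 0.59. *SERTAD1*, a cofactor of cell cycle transcription, had 17.3 and 25.0 TPM in siControl and 50.0 and 56.9 in siCNOT4. *RPS27L*, a ribosomal protein paralog, had 170 and 184 against 307 and 315, and reads could be shared with the near copy *RPS27*. After TMM scaling 0 of the 22 were called higher and 3 lower (beside 4.45% and 4.33%). Of 20 cell cycle genes that p53 represses through p21, 3 were called higher, *BUB1* (1.11), *CDC25C* (1.06) and *AURKA* (0.64), and 0 lower (beside 11.3% and 1.30%). The phosphatase *CDC25C*, which opens entry to mitosis, had 60.8 and 60.0 TPM against 129 and 126. The median of these 20 genes was 0.38, or -0.12 relative to all features. After TMM scaling 0 were called in either direction (beside 4.45% and 4.33%). After quantile normalization 2 were called higher, *CDC25C* and *BUB1*, and 1 lower (beside 7.11% and 8.23% of all features). After trend removal the same 2 were called higher and 3 lower (beside 11.8% and 13.2%).

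Among 16 genes of the wider death machinery, 1 was called higher and 0 lower (beside 11.3% and 1.30% of all features). This was *MCL1*, the survival protein that NOXA binds, with 95.2 and 60.1 TPM in siControl and 144 and 157 in siCNOT4 (0.98, SE 0.24, limma adjusted p = 0.0499). Its call lay at the threshold and was not kept after TMM scaling (0.44, adjusted p = 0.118) or trend removal (0.37, adjusted p = 0.0581), while it was called after quantile normalization (0.70, adjusted p = 0.0478). *BIK*, a BH3-only gene of low level, had the largest fold change of the list at 1.19 and was not called (adjusted p = 0.0573). The median of the list was 0.58, or 0.080 relative to all features.

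**Figure D5:**
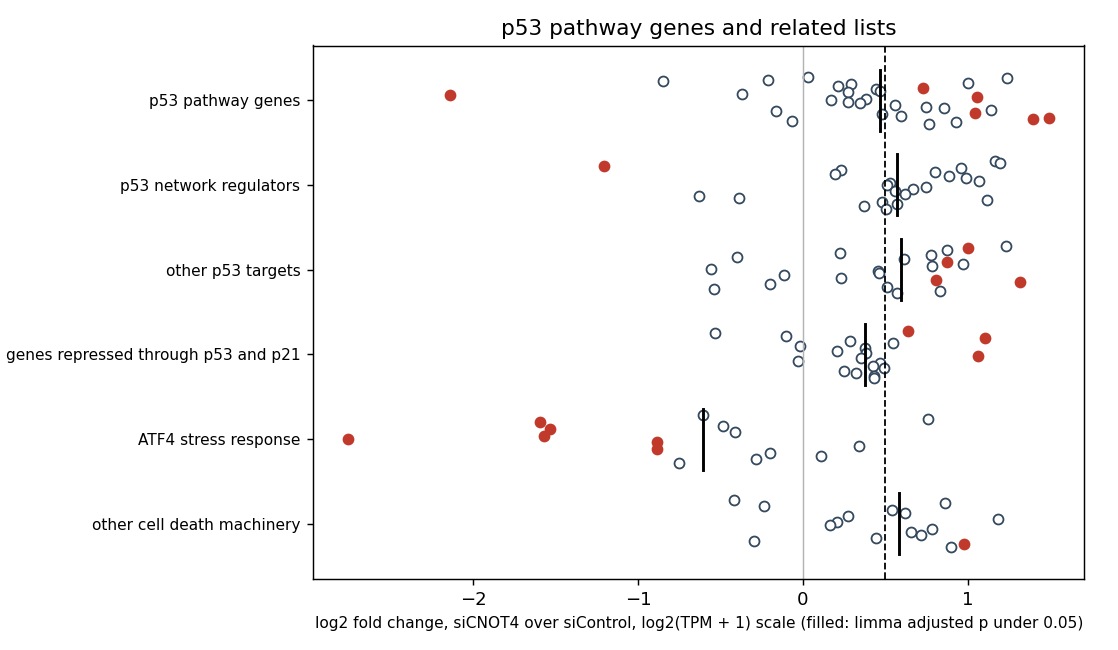
Log2 fold changes of the 31 p53 pathway genes and of the 5 related lists, 1 point per tested gene, filled red where the limma adjusted p was under 0.05, with a bar at each list's median and a dashed line at the median of all features. The ATF4 list has its median at -0.61 and all of its filled points below 0, while the medians of the other lists lie between 0.38 and 0.59.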

How the data were processed

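RNA was poly(A)-selected and made into stranded libraries from total RNA, per the labels' protocols. The submitters' processing notes name FastQC 0.11.2, STAR 2.5.3a, featureCounts and the build hg19. The annotation and the use of strand are not given in the sources used here. The deposited values are TPM per gene symbol, per the file headers, scaled by the authors to 1000000 in each library and not pooled. The members and lists were chosen with earlier results of these data known.

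From these, log2(TPM + 1) was compared between groups with limma 3.58.1 (R 4.3.3, lmFit and eBayes with a trend, 2 libraries against 2, no covariates) where a feature's TPM averaged 1 or more over the 4 libraries. Benjamini-Hochberg adjustment ran over all 14208 features so kept, and 0.05 was the threshold. The pseudocount of 1 understates changes of low genes. All 31 genes were named, with *CNOT4*, the called genes of 5 related lists and, from these lists, the gene of largest absolute fold change; 1 gene set down for naming is not reported here and was left out of its list. Lengths and GC content came from GENCODE 29 (GRCh38, 18438 symbols matched directly and 950 through older symbols, 96.7% of tested features). The longest transcript of each symbol was used, protein-coding ones first. The lengths behind the deposited TPM are not given in the sources used here. Trend removal, the correlations with length and the estimated reads rest on this choice. Files hold no read totals, so depth was estimated from the step of 1 read in values under 0.1 TPM. Intervals at 95% cover counting error only. No paired design was assumed.

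On simulated data with 200 changed features among 14208, limma called 133 at an imposed log2 change of 3, 94 at 2 and 0 at 1, where 159 had an unadjusted p under 0.05. Alternatives were a pseudocount of 0.1, no filter, a mean TPM of at least 5, TMM scaling (unweighted), quantile normalization, removal of the length and GC trend by splines, each library left out, a replicate block and eBayes with no trend.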

Additional observations from a re-analysis of the deposited data

How the results depend on the processing

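With TPM as deposited, 1792 features, 5 higher members and 1 lower member were called, and the members' median log2 fold change was 0.47. The feature count was 3431 with the trend on length and GC removed, 147 at a mean TPM of at least 5, 908 with no filter, 756 with no trend in eBayes, 558 with a pseudocount of 0.1 and 3655 with the replicate block. Leaving out 1 library gave 450 to 11311. Higher members numbered 0 after TMM scaling, 3 after quantile normalization, 0 at a mean TPM of at least 5, 1 with no filter, with no trend and with a pseudocount of 0.1, and 9 with the replicate block (beside 23.5% of all features), and 0 to 24 with 1 library left out. Beside these counts of 0 in limma, 12 members after TMM scaling and 14 at a mean TPM of at least 5 had an unadjusted p under 0.05. Over all features these counts were 5155 of 14208 and 4476 of 11395. Lower members numbered 3 after TMM scaling and 4 after quantile normalization and after trend removal, and 0 to 5 with 1 library left out. The median was -0.043 after TMM scaling, 0.059 after quantile normalization and 0.0090 after trend removal, and 0.12 to 0.84 with 1 library left out. On simulated data with 200 changed features among 14208, 0 of 200 log2 changes of 1 passed the adjusted threshold. In the limma fit of the data themselves, 5974 of 14208 features had an unadjusted p under 0.05. The adjusted threshold depends on that share, so the simulation does not give the sensitivity of the fit. The replicate numbers are not said to pair libraries. Same-numbered libraries deviated together with r = 0.17 across features, from a single pair of differences.

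Some genes changed sign. After TMM scaling the values were *MDM4* -0.13, *CCNG1* -0.25, *CDKN1A* -0.33, *PLK2* -0.22, *PLK3* -0.11, *AEN* -0.51, *PHLDA3* -0.37, *FAS* -0.043, *TNFRSF10A* -0.037, *EDA2R* -0.061 and *FDXR* -0.26. After quantile normalization they were *MDM4* -0.17, *PLK2* -0.33, *PLK3* -0.29, *AEN* -0.22, *PHLDA3* -0.20, *FAS* -0.11, *TNFRSF10A* -0.093, *EDA2R* -0.15 and *FDXR* -0.087. After trend removal they were *MDM4* -0.48, *CCNG1* -0.31, *CDKN1A* -0.048, *PLK2* -0.21, *AEN* -0.37, *PHLDA3* -0.12, *FAS* -0.13, *EDA2R* -0.13, *ZMAT3* -0.15 and *FBXO22* -0.11. TMM scaling, quantile normalization and trend removal each take out the shift of all features by construction. With 1 library left out, *SESN1* ranged from -0.34 to 0.011, *CCNG1* from -0.039 to 0.63, *CDKN1A* from -0.048 to 0.47, *BAX* from -0.43 to 0.0054, *AEN* from -0.24 to 0.31, *TRIAP1* from -0.22 to 0.092, *TNFRSF10A* from -0.075 to 1.03 and *EDA2R* from -0.0097 to 0.90.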
